A study of Mus musculus with 9 samples.

Results

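The MYC, MAX and MXD network was followed in L8057 cells, a mouse megakaryocytic line, as the genes Myc, Mycn, Max, Mlx, Mga, Mnt, Mxd1, Mxi1, Mxd3 and Mxd4. These are 10 genes, read by 26 probe sets, of 18193 genes that could be named on the array. The family was chosen by the values of 2 of them in these arrays, since Mxd1 was higher and Myc was lower after knockdown, so Myc and Mxd1 are described below with no test. The other 8 genes (22 probe sets) entered as relatives of these 2, and they were tested. The study used 9 arrays, 3 in each of 3 groups: CBFb_KD, with an shRNA against CBFb; Ring1b_KD, with an shRNA against Ring1b (symbol Rnf2); and Control, which carried the empty vector. All cells were infected with lentivirus, placed 48 h later in puromycin with TPA (12-O-tetradecanoylphorbol-13-acetate, a phorbol ester that drives these cells to mature) at 50 nM, and collected 72 h after that. The Control vector was empty, so an effect of expressing any hairpin and an effect of the named knockdown cannot be told apart. One hairpin label stood for each target, and the labels did not say whether replicates came from separate infections, so p-values measure the spread between these samples only.

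MYC and MYCN are transcription factors that pair with MAX and bind the E-box CACGTG, where they raise transcription of genes for ribosome production, nucleotide synthesis and growth. MXD1, MXI1 (also called MXD2), MXD3, MXD4 and MNT pair with MAX, or in some cases with the related MLX, at the same sites, and bring the SIN3 and histone deacetylase corepressor. MGA also pairs with MAX and is the scaffold of PRC1.6, a variant Polycomb complex that contains RING1B or RING1A. In blood cells MYC is typically high while cells divide, and MXD1 is known for its rise as they mature. CBFb is the partner that stabilises RUNX proteins on DNA, and RING1B is the catalytic subunit of Polycomb repressive complex PRC1.

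The upstream bases of Mxd1 and Mxd4 are shown first, with windows around the E-boxes found in other members. E-boxes are where the network's own proteins bind. Mxd1 had the widest difference from Control, and of the tested MXD genes Mxd4 alone was called against Control. Sequences are from RefSeq, build GRCm38.p6, read 5′ to 3′ along the gene. Capitals mark matches, on either strand, to the E-box CACGTG or to the CCAAT box (CCAAT or ATTGG). The CCAAT box was added to the search after the sequences had been seen. The Mxd1 stretch is the upstream window without its last bases, which lie inside the annotated span of the gene. Starts are those of the listed promoters, which can lie inside that span. The Mlx stretch lies wholly inside the annotated span of Mlx (101086707 to 101092207). The Mnt stretch runs past the start of the annotated span of Mnt, at 74830806.
Mxd1 (chr6:86669235-86669409, minus strand): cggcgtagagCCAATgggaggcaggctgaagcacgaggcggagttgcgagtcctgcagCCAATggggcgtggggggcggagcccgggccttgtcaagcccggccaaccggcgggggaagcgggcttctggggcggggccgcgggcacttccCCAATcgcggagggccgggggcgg
Mxd4 (chr5:34187711-34187960, minus strand): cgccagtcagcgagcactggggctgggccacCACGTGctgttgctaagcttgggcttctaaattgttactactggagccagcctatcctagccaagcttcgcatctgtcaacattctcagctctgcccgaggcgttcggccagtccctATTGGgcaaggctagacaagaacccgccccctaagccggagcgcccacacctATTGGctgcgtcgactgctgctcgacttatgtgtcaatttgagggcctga
Mlx (chr11:101087238-101087267, plus strand): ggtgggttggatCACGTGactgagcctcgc
Mnt (chr11:74830789-74830818, plus strand): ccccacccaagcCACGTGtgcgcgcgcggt

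Promoters were listed for 9 of the 10 members, 11 promoters in all since Mxi1 had 3. An E-box occurred in the 250 bases before the start of 3 of them: in Mxd4 it began 219 bases before the start, in Mnt 123 bases and in Mlx 40 bases. Over all 32851 listed promoters the share with an E-box in these 250 bases was 6.02%. The RUNX core (TGTGGT or ACCACA, which covers both strands) was in the upstream window of 0 members, and in 14% of all promoters. The Mxd1 window held 4 CCAAT boxes, which began 240, 192, 99 and 58 bases before the start; 276 of all promoters (0.84%) held 4 or more. The fourth lies in the part not printed. Mxd4 and Mlx held 2 each, and 33.8% of all promoters held at least 1. These are matches of letters and say nothing of whether a factor was bound in these cells.

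Both knockdown targets were low where the labels put the knockdown. Cbfb read 9.32, 9.14 and 9.12 on the log2 scale in CBFb_KD, against 12.16 to 12.28 in Ring1b_KD and 12.27 to 12.50 in Control. Rnf2 read 9.08, 8.96 and 8.92 in Ring1b_KD, against 10.52 to 10.57 in CBFb_KD and 10.56 to 10.72 in Control. Of the 14 megakaryocyte markers measured, 8 stood at or above the median gene (7.42) in Control, with a range over the list from 5.37 to 14.41. So did 4 of 8 erythroid, 5 of 10 mast cell and basophil, 3 of 9 lymphoid, and 3 of 12 granulocyte and monocyte markers. Arrays of one group correlated at 0.995 to 0.997, and arrays of different groups at 0.987 to 0.994, over all probe sets. In bulk RNA, fewer cells of a type and less RNA per cell cannot be told apart.

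Myc stood highest in Control and lowest in CBFb_KD. Myc, at chromosome 15 from 61985341 to 61990361, was read by 1 probe set. It was 11.80, 11.81 and 12.05 in Control, 11.42, 11.45 and 11.40 in Ring1b_KD, and 11.08, 11.14 and 11.20 in CBFb_KD. The 3 groups did not overlap, and the gap from Control was larger in CBFb_KD. The Myc difference from Control was -0.74 (SE 0.08, 1.67-fold lower) in CBFb_KD and -0.46 (SE 0.08, 1.37-fold lower) in Ring1b_KD, on the log2 scale. The Myc difference between the knockdowns, -0.28, was -0.11 when arrays were centred on their medians in place of quantile normalization, and the difference of Ring1b_KD from Control was then -0.64.

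Mycn, the neuronal relative of Myc, did not pass the test in either knockdown. Its brightest probe set read 10.60, 10.60 and 10.57 in CBFb_KD, 10.62, 10.78 and 10.69 in Ring1b_KD, and 10.64, 10.50 and 10.60 in Control. The Mycn differences were 0.01 (95% CI -0.15 to 0.17, limma adjusted p = 0.964) and 0.12 (95% CI -0.04 to 0.28, limma adjusted p = 0.37). The other Mycn probe sets were dim, with group means from 5.35 to 6.18, and did not pass either.

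Max, the obligate partner of MYC, averaged 9.89 ± 0.22 (SD, n = 3) in CBFb_KD, 9.82 ± 0.29 in Ring1b_KD and 9.74 ± 0.30 in Control, with single arrays from 9.41 to 10.14. The groups overlapped, and the spread between arrays of one group was larger than the differences of 0.14 (95% CI -0.23 to 0.52, limma adjusted p = 0.747) and 0.08 (95% CI -0.29 to 0.45, limma adjusted p = 0.838). Mlx, the partner of the Mondo proteins and of some MXD proteins, lay above Control on every CBFb_KD array (8.47, 8.59 and 8.62 against 8.31, 8.29 and 8.35) and spread from 7.90 to 8.59 in Ring1b_KD. Its difference of 0.25 in CBFb_KD did not pass (SE 0.14, limma adjusted p = 0.374), nor did that of its second probe set. Between the knockdowns the Mlx differences of 0.29 and 0.27 passed, among the alternatives run, only without Ring1b_KD array 1 (0.45, limma adjusted p = 0.0344, and 0.39, limma adjusted p = 0.0311).

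**Figure D1:**
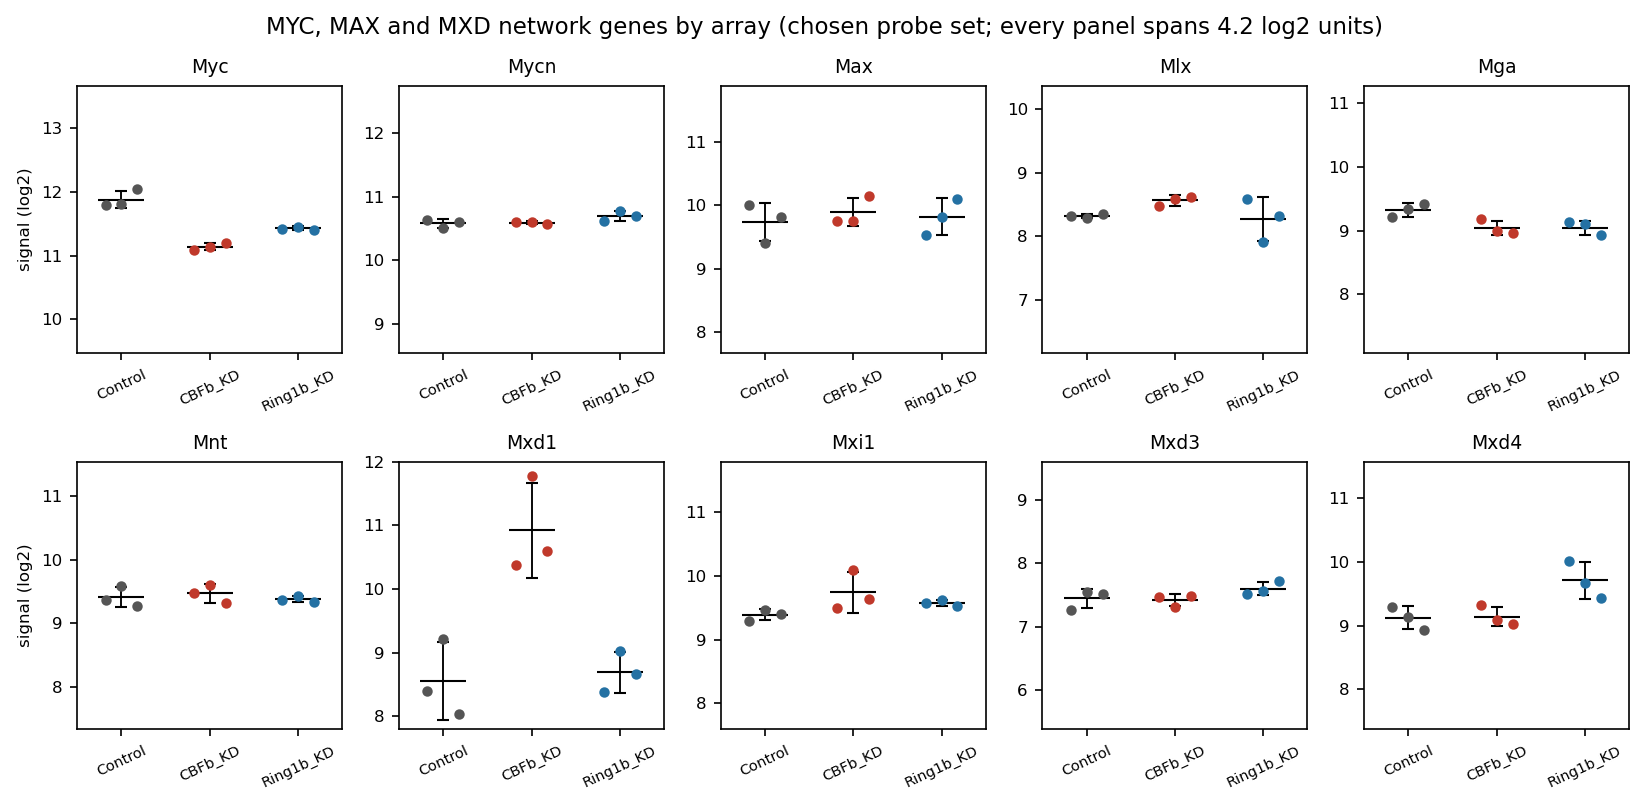
Signal of the brightest probe set of each of the 10 genes (y axis, log2) on every array, by group (x axis). Points are arrays, long lines are group means and bars are SD (n = 3); every panel spans the same range of log2 units. Mxd1 stands out in CBFb_KD, the Myc groups step down without overlap, and Mxd4 is higher in Ring1b_KD.

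Mxd1, a MAX partner that represses MYC-type sites, was the member with the widest difference. The gene lies on chromosome 6 from 86647044 to 86669234, on the strand printed above. Its brightest probe set read 10.37, 11.77 and 10.60 in CBFb_KD, 8.38, 9.02 and 8.66 in Ring1b_KD, and 8.40, 9.22 and 8.03 in Control. Every CBFb_KD array lay above every array of the other groups, while Ring1b_KD and Control overlapped. The difference in CBFb_KD was 2.37 (SE 0.35, 5.16-fold higher), against 0.14 (SE 0.35) in Ring1b_KD. As with Myc, the SE describes the spread between arrays and is no test.

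The other Mxd1 probe sets had the same order of groups with smaller differences. The second read 9.18, 10.76 and 9.58 in CBFb_KD and 7.59, 8.45 and 7.61 in Control, a difference of 1.96 (3.88-fold); the third read 7.43, 9.31 and 8.15 against 7.07, 7.38 and 6.85, a difference of 1.20 (2.29-fold). In Ring1b_KD these 2 differed from Control by 0.31 and 0.20. With all 3 probe sets, array 2 was the highest of its group in each of the 3 groups, and the SD in CBFb_KD was 0.75, 0.82 and 0.95. Without CBFb_KD array 2 the difference of the brightest probe set was 1.94, of the second 1.50 and of the third 0.69.

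**Figure D2:**
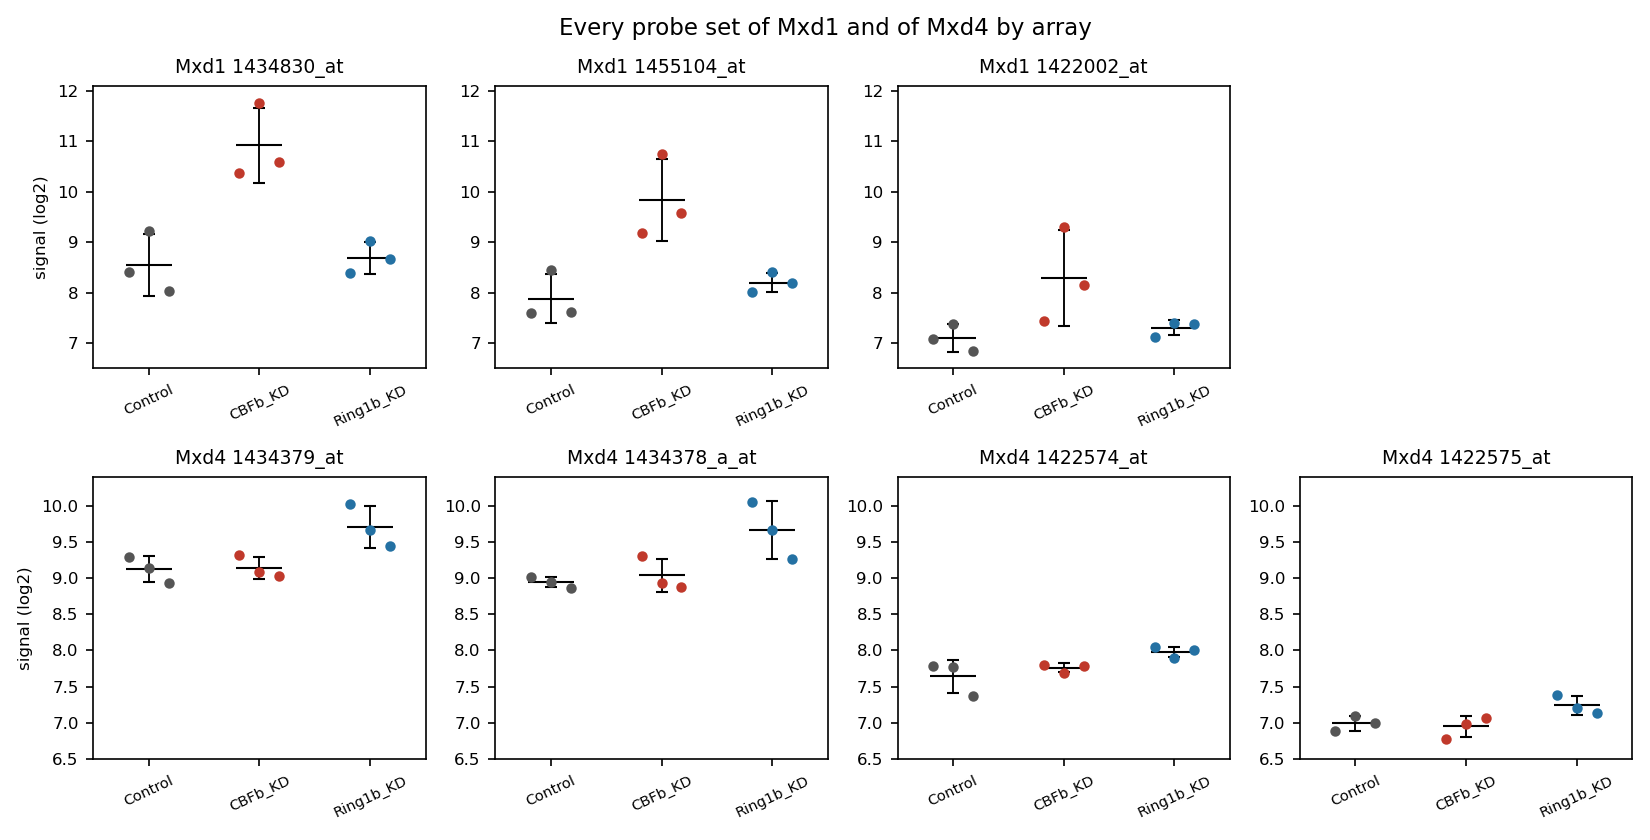
Signal (y axis, log2) of the 3 probe sets of Mxd1 (top) and the 4 of Mxd4 (bottom) on each array by group; lines are means and bars SD (n = 3). All 3 Mxd1 probe sets are highest in CBFb_KD, with array 2 on top, and the 4 Mxd4 probe sets have their highest mean in Ring1b_KD.

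Mxd4, by contrast with Mxd1, had its highest level in Ring1b_KD. The gene lies on chromosome 5 from 34176580 to 34187710, and its product is a MAX partner of the same repressor class. Its brightest probe set read 10.02, 9.67 and 9.44 in Ring1b_KD, 9.32, 9.08 and 9.03 in CBFb_KD, and 9.29, 9.14 and 8.93 in Control. Every Ring1b_KD array lay above every other array, and CBFb_KD and Control overlapped. Mxd4 rose by 0.59 in Ring1b_KD (SE 0.14, 1.51-fold, limma adjusted p = 0.0243) and differed by 0.02 in CBFb_KD (SE 0.14, limma adjusted p = 0.964). The second Mxd4 probe set read 10.05, 9.67 and 9.26 against 9.01, 8.94 and 8.86 in Control and rose by 0.72 (SE 0.17, 1.65-fold, limma adjusted p = 0.0215). Of the dimmer 2, one differed by 0.34 (limma adjusted p = 0.081) and the other by 0.24 (limma adjusted p = 0.172), with every Ring1b_KD array above Control. Between the knockdowns Mxd4 was lower in CBFb_KD by 0.57 (difference -0.57, limma adjusted p = 0.0195) and, with the second probe set, by 0.62 (difference -0.62, limma adjusted p = 0.0293).

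The Mxd4 calls were close to the threshold. When each array was centred on its median, the differences in Ring1b_KD were 0.42 (limma adjusted p = 0.108) and 0.55 (limma adjusted p = 0.0685). The call of the brightest probe set was also lost with the values as deposited (0.50, limma adjusted p = 0.0549) and without Ring1b_KD array 1 (0.44, limma adjusted p = 0.0718), Ring1b_KD array 2 (0.61, 0.0618), Control array 2 (0.60, 0.0768) or Control array 3 (0.50, 0.111), and that of the second without any of these or Control array 1 (0.53 to 0.76, limma adjusted p 0.0513 to 0.0855). The difference was above 0 in every one of these fits. Between the knockdowns the call of the brightest probe set was lost with the values as deposited (-0.46, limma adjusted p = 0.0658), with centred arrays (-0.38, 0.142), and without CBFb_KD array 2 (-0.54, 0.0655), CBFb_KD array 3 (-0.52, 0.0796) or Ring1b_KD array 1 (-0.42, 0.0634). That of the second was lost in these settings too (-0.57 to -0.43), without Ring1b_KD array 2 (-0.62, limma adjusted p = 0.0753) and with only the 2 groups fitted (-0.62, 0.0725).

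Mxi1, also of the repressor class, read 9.49, 10.10 and 9.64 in CBFb_KD, 9.57, 9.62 and 9.52 in Ring1b_KD, and 9.29, 9.47 and 9.40 in Control. Both knockdowns lay above Control on every array, by 0.35 (SE 0.13, limma adjusted p = 0.133) and 0.18 (SE 0.13, limma adjusted p = 0.45), and neither passed. Without CBFb_KD array 1 the Mxi1 difference passed, at 0.48 (limma adjusted p = 0.0307). The second Mxi1 probe set differed by 0.26 and 0.28 and did not pass. In CBFb_KD array 2 was again the highest for both Mxi1 probe sets, as it was for Mxd1.

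Mxd3, an MXD repressor known from dividing cells, gave different results with its 3 probe sets. The brightest read 7.47, 7.31 and 7.49 in CBFb_KD and 7.27, 7.55 and 7.52 in Control and differed by -0.02 (limma adjusted p = 0.943), and by 0.15 in Ring1b_KD (limma adjusted p = 0.39). The second brightest read 7.15, 6.94 and 6.88 in CBFb_KD, 8.17, 7.59 and 7.46 in Ring1b_KD, and 7.36, 7.53 and 7.38 in Control. It lay below Control in CBFb_KD (-0.44, limma adjusted p = 0.109) and reached above it in Ring1b_KD (0.32, limma adjusted p = 0.245), neither of which passed; without Ring1b_KD array 1 the first did, at the same size (limma adjusted p = 0.0145), as it did with only the 2 groups fitted (limma adjusted p = 0.0185). The difference between the knockdowns passed, at -0.75 (SE 0.15, 1.68-fold lower in CBFb_KD, limma adjusted p = 0.00649). The third differed from Control by -0.11 and -0.20 and did not pass.

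Mnt, the broadly expressed repressor that shares MAX with MYC, read 9.48, 9.61 and 9.32 in CBFb_KD, 9.37, 9.43 and 9.33 in Ring1b_KD, and 9.36, 9.58 and 9.27 in Control. The groups overlapped, with differences of 0.06 (95% CI -0.16 to 0.28, limma adjusted p = 0.825) and -0.03 (95% CI -0.25 to 0.19, limma adjusted p = 0.911). Its second probe set did not pass either.

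Mga, on chromosome 2 from 119872503 to 119970129, fell in CBFb_KD with 1 of its 5 probe sets. That probe set, its second brightest, read 8.26, 8.34 and 8.18 in CBFb_KD, 8.75, 8.69 and 8.50 in Ring1b_KD, and 8.68, 8.65 and 8.85 in Control. CBFb_KD lay below all other arrays, and Ring1b_KD overlapped Control. The fall was 0.47 (difference -0.47, SE 0.09, 1.38-fold, limma adjusted p = 0.00726), and it passed in all 15 alternatives, with values from -0.51 to -0.41. In Ring1b_KD the difference was -0.08 (limma adjusted p = 0.664), and the difference between the knockdowns passed, at -0.39 (limma adjusted p = 0.0169). It did not pass with centred arrays (-0.24, limma adjusted p = 0.173), nor without CBFb_KD array 3 (-0.35, 0.0746), Ring1b_KD array 1 (-0.34, 0.0556) or Ring1b_KD array 2 (-0.37, 0.0519).

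The brightest Mga probe set read 9.18, 8.99 and 8.97 in CBFb_KD, 9.13, 9.10 and 8.93 in Ring1b_KD, and 9.21, 9.34 and 9.42 in Control. Both knockdowns lay below Control on every array, by about the same amount: the difference was -0.28 in CBFb_KD (limma adjusted p = 0.0951) and -0.27 in Ring1b_KD (limma adjusted p = 0.105), and neither passed. Without CBFb_KD array 1 the first was -0.34 (limma adjusted p = 0.048). With the values as deposited, the Ring1b_KD difference was -0.36 (limma adjusted p = 0.039), and with centred arrays -0.45 (limma adjusted p = 0.0183). The dimmer Mga probe sets differed by -0.27 to 0.23 from Control, apart from one at -0.29 in Ring1b_KD, and did not pass. That one passed in both knockdowns without Control array 1, at -0.37 (limma adjusted p = 0.0496) and -0.39 (limma adjusted p = 0.0448). Another passed between the knockdowns without Ring1b_KD array 1, at -0.42 (limma adjusted p = 0.0341) in place of -0.30.

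**Figure D3:**
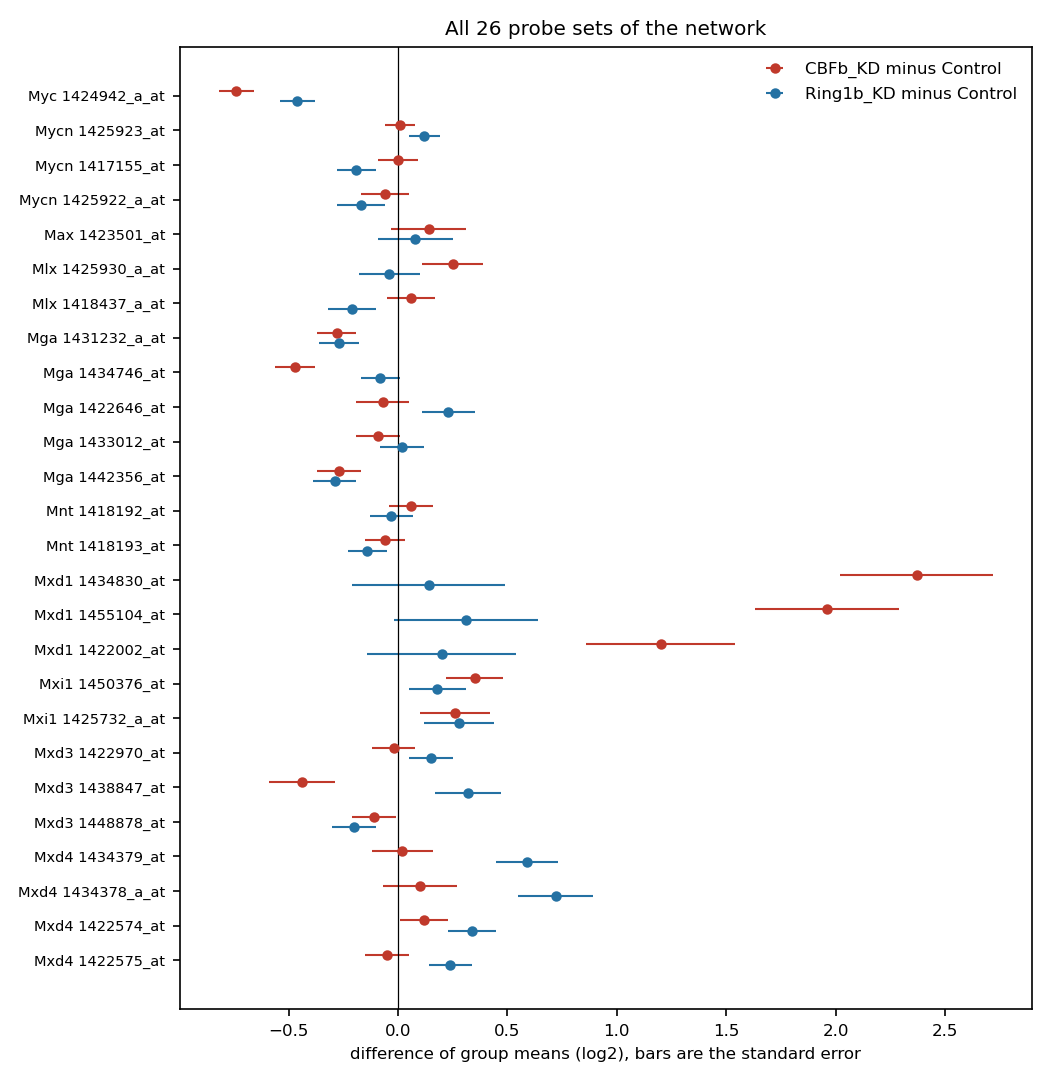
Difference of each knockdown from Control (x axis, log2; bars are SE) for each of the 26 probe sets (y axis), grouped by gene. The Mxd1 probe sets lie far right in CBFb_KD, Myc lies left in both knockdowns, and the probe sets of Mycn, Max and Mnt lie near 0.

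Counted over the 22 probe sets of the 8 tested genes, 1 fell and 0 rose in CBFb_KD, 2 rose and 0 fell in Ring1b_KD, and between the knockdowns 4 were lower in CBFb_KD and 0 higher. At an unadjusted limma p under 0.05 there were 5, 6 and 7. Over all 45037 probe sets, 4.9% rose and 4.76% fell in CBFb_KD, 3.77% rose and 4.71% fell in Ring1b_KD, and 7.07% were higher and 6.33% lower in CBFb_KD than in Ring1b_KD. By direction, the share of the 22 that fell in CBFb_KD was near that of all probe sets. The share that rose in Ring1b_KD and the share lower between the knockdowns were above it, with 0 in the other direction. With rises and falls pooled, the share called in Ring1b_KD was near that of all probe sets. That in CBFb_KD was then below it, and that between the knockdowns above it. The counts in Ring1b_KD and between the knockdowns rest on few probe sets, 2 of them in each case of Mxd4. In Ring1b_KD 1 rose and 1 fell with the values as deposited, and 0 rose and 1 fell with centred arrays. The median differences of the 22 probe sets from Control, -0.01 and 0.05, were near those of all probe sets, -0.01 and 0.01. Of all calls in Ring1b_KD 44.4% were higher than Control, a share that was 37.7% with the values as deposited and 15.1% with arrays centred on their medians; between the knockdowns 52.8% were higher in CBFb_KD, against 59.2% and 81.6%. The 2 comparisons with Control share its arrays, and no overlap between them was tested.

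The genes most like Mxd1 over the 9 arrays, among other genes at or above the median level, were Cd81 (Pearson r 0.982), Lmna (0.981), Ell2 (0.98), Fchsd1 (0.976) and Smtnl2 (0.974). Cd81 is a tetraspanin of the cell surface, Lmna encodes lamin A of the nuclear envelope, and Ell2 is an elongation factor of RNA polymerase II. Those most like Myc were Hmgb2 (0.97), Dek (0.968), Efhd2 (0.965), Psme3 (0.965) and Rnmt (0.962). Hmgb2 and Dek are chromatin proteins, and Rnmt caps messenger RNA. The likeness describes 9 arrays that fall into 3 groups and has no test.

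Many genes known as targets of MYC in ribosome assembly fell in both knockdowns. For these lists each gene was read by its brightest probe set. The lists were chosen with earlier results of these data known. Their shares beside those of all genes are therefore a description and no test. Of the 31 measured of 32 listed, 24 fell and 0 rose in CBFb_KD, with a median difference of -0.47, and all 31 lay below 0. In Ring1b_KD 13 fell and 0 rose, with a median of -0.28 and 27 below 0. Over all 18193 genes, 6.62% rose and 6.19% fell in CBFb_KD, and 4.54% rose and 5.54% fell in Ring1b_KD, with medians of -0.01 and 0.01. These shares include dim genes, while all 31 listed targets stood at or above the median gene (7.42) in Control. So did 32 of 34 metabolism targets, 28 of 28 MYC cofactors and 19 of 19 mitotic genes. No background of genes of like level was made. The array means of the list ran from 10.30 to 10.54 in CBFb_KD, 10.53 to 10.79 in Ring1b_KD and 10.88 to 10.97 in Control, so both knockdowns lay below Control.

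Nop16, a nucleolar protein of the large ribosomal subunit's assembly, read 9.50, 9.34 and 9.32 in CBFb_KD, 8.90, 8.87 and 8.93 in Ring1b_KD, and 10.31, 10.19 and 10.30 in Control. It fell by 0.88 (SE 0.08, limma adjusted p = 6.56e-05) and by 1.37 (SE 0.08, limma adjusted p = 3.58e-06), and by 0.49 and 0.88 when its probe sets were averaged. Ddx21, a nucleolar RNA helicase, fell by 0.67 in CBFb_KD (limma adjusted p = 0.000465) and by 0.54 in Ring1b_KD (limma adjusted p = 0.00263). Fbl, the methyltransferase fibrillarin, fell by 0.63 in CBFb_KD (limma adjusted p = 0.00164). In Ring1b_KD, Nop56, a partner of fibrillarin, fell by 0.48 (limma adjusted p = 0.00645) and Ncl, nucleolin, by 0.53 (limma adjusted p = 0.00654). Naf1, needed for H/ACA ribonucleoproteins, fell by 1.46 in CBFb_KD (limma adjusted p = 5.82e-05) and differed by 0.00 in Ring1b_KD. That Naf1 fell was known from earlier results when the list was made, and it is counted among the 24. The count of 24 was 12 without Control array 3 and 15 without CBFb_KD array 2, and the count of 13 was 6 without Control array 3 and 7 without any of Ring1b_KD arrays 1 and 2 and Control arrays 1 and 2.

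Of the MYC targets in metabolism, translation and the cell cycle, 34 were measured of 36 listed. In CBFb_KD 18 fell and 1 rose, that is 52.9% fell against 6.19% of all genes (median -0.29). In Ring1b_KD 7 fell and 0 rose, that is 20.6% against 5.54% (median -0.16); 27 were not called and 10 lay above 0. Slc16a1, the lactate transporter MCT1, read 11.67, 11.66 and 11.68 in CBFb_KD, 10.93, 10.75 and 11.01 in Ring1b_KD, and 12.24, 12.22 and 12.31 in Control. It fell by 0.59 (limma adjusted p = 5e-04) and by 1.36 (limma adjusted p = 2.92e-06), and by 0.29 and 0.79 when its probe sets were averaged. Gart, of purine synthesis, fell by 0.81 in CBFb_KD (limma adjusted p = 0.000398) and 0.73 in Ring1b_KD (limma adjusted p = 0.00111), and Ppat, the first enzyme of that pathway, by 0.53 in CBFb_KD (limma adjusted p = 0.00184). Mthfd2, of mitochondrial folate metabolism, fell by 0.79 in Ring1b_KD (limma adjusted p = 0.000365), and Umps, of pyrimidine synthesis, by 0.48 (limma adjusted p = 0.00296). Pkm, pyruvate kinase, was the gene that rose, by 0.59 in CBFb_KD (limma adjusted p = 0.00121). The count of 19 calls in CBFb_KD was 10 without CBFb_KD array 2, CBFb_KD array 3 or Control array 3, 12 without Control array 1 and 11 without Control array 2. The 7 in Ring1b_KD were 11 with the values as deposited and 16 with arrays centred on their medians.

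Genes of mitosis moved beside the MYC targets in CBFb_KD. Of 19 measured of 20, 17 fell in CBFb_KD (median -0.53), that is 89.5% against 6.19% of all genes. In Ring1b_KD 2 fell (median -0.17), that is 10.5% against 5.54%. This count of 2 was 0 to 4 when single arrays were left out, 9 with the values as deposited and 11 with centred arrays. That mitotic genes fell was already known from earlier results. The list's array means ran from 9.82 to 10.12 in CBFb_KD, 10.24 to 10.44 in Ring1b_KD and 10.42 to 10.59 in Control. Aurkb, a mitotic kinase, read 9.28, 8.89 and 8.95 in CBFb_KD, 10.17, 9.73 and 10.27 in Ring1b_KD, and 10.24, 9.96 and 10.13 in Control, a fall of 1.07 in CBFb_KD (limma adjusted p = 0.000682). Mki67, the proliferation marker Ki-67, fell by 0.73 in CBFb_KD (limma adjusted p = 0.000817) and by 0.45 in Ring1b_KD (limma adjusted p = 0.0166). Its fall in Ring1b_KD was lost without Control array 1 (-0.43, limma adjusted p = 0.0617) or Control array 3 (-0.41, 0.0808). The part of cell division in the differences of the MYC targets was not tested. In each group array 2, the highest in Mxd1, was also the lowest in the mean of the mitotic genes. This was not particular to mitosis. Array 2 was also the lowest of each group for the metabolism targets (11.23 in CBFb_KD, 11.33 in Ring1b_KD and 11.58 in Control). In both knockdowns it was the lowest for the ribosome assembly targets, the MYC cofactors, PRC1.6 and the SIN3 and HDAC genes.

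Some markers of maturation were also higher in CBFb_KD. Over all genes, 6.62% rose and 6.19% fell in CBFb_KD, and 4.54% rose and 5.54% fell in Ring1b_KD. Of the 14 megakaryocyte markers 6 (42.9%) rose in CBFb_KD, with a median of 0.35. In Ring1b_KD 0 rose and 1 (7.14%) fell, near the share of all genes. Their array means ran from 9.07 to 9.17 in CBFb_KD, 8.25 to 8.50 in Control and 8.08 to 8.48 in Ring1b_KD. Of 8 erythroid markers 5 (62.5%) rose in CBFb_KD and 0 in Ring1b_KD. The erythroid array means were 8.20 to 8.52 in CBFb_KD, 7.58 to 7.73 in Control and 7.62 to 7.77 in Ring1b_KD. Within CBFb_KD, array 2, the highest in Mxd1, had the lowest mean of the megakaryocyte markers (9.07) and the highest of the erythroid markers (8.52). The part of these markers in the network's differences was not tested. Of 9 lymphoid markers 0 were called in either knockdown. Of 12 granulocyte and monocyte markers 1 (8.33%) rose in CBFb_KD and 1 (8.33%) fell in Ring1b_KD, near the shares of all genes. Of 10 mast cell and basophil markers 1 rose and 1 fell in CBFb_KD (10% each). In Ring1b_KD 2 of them rose (20%) and 1 fell (10%), which rests on few genes.

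**Figure D4:**
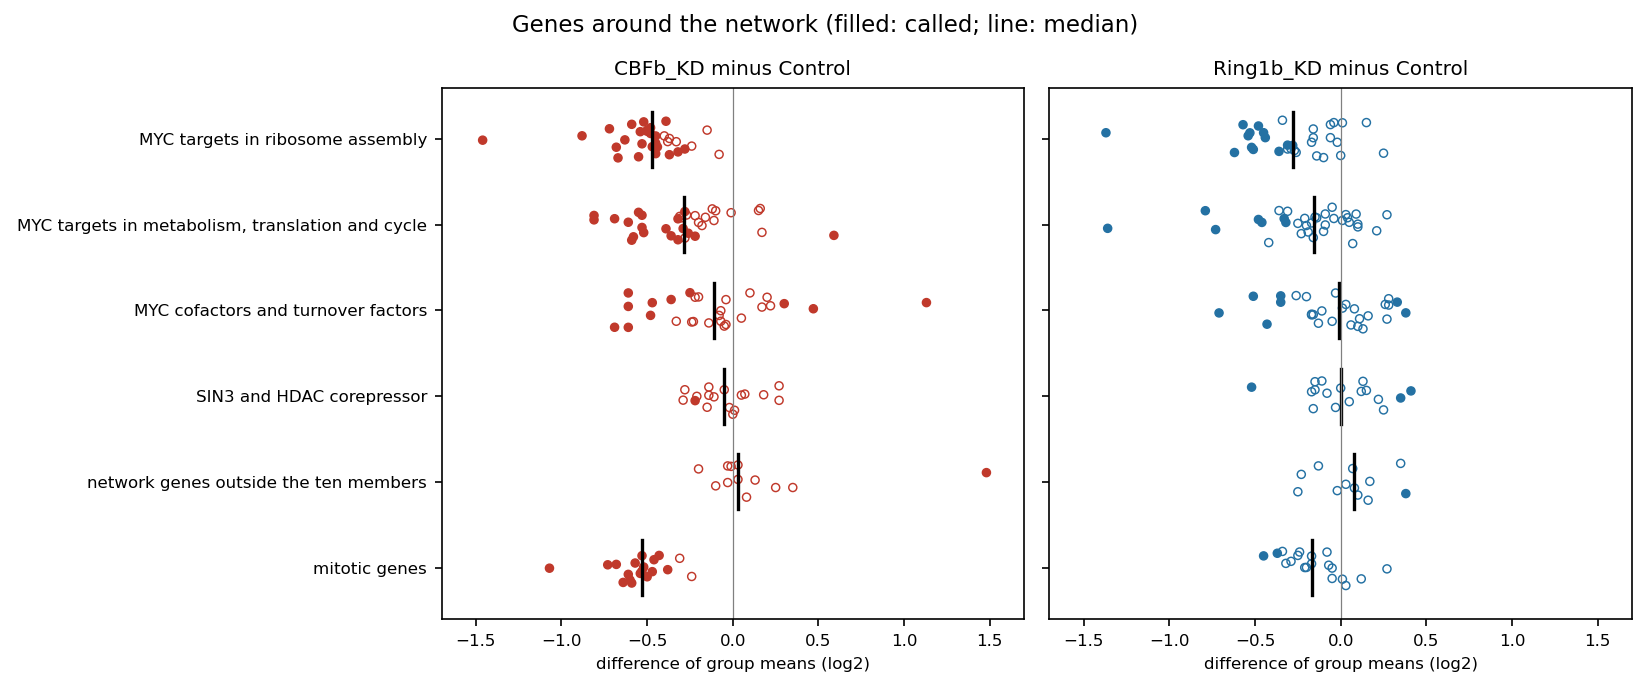
Difference from Control (x axis, log2) of each measured gene in the lists around the network (y axis), for CBFb_KD (left) and Ring1b_KD (right); filled points passed limma's test and black lines are list medians. The ribosome assembly targets and the mitotic genes lie left of 0 in CBFb_KD, with medians of -0.47 and -0.53.

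Cofactors of MYC and the proteins that control its turnover changed in both directions in CBFb_KD. In Ring1b_KD the rises depended on the scaling and on single arrays. Of 28 measured of 30, 3 rose and 8 fell in CBFb_KD (10.7% and 28.6%, against 6.62% and 6.19% of all genes), and 2 rose and 5 fell in Ring1b_KD (7.14% and 17.9%, against 4.54% and 5.54%). Pim1, a kinase that phosphorylates MYC, rose in CBFb_KD by 1.13 (9.95, 10.68 and 9.92 against 9.08, 9.38 and 8.70 in Control, limma adjusted p = 0.00323), and array 2 was the highest in both groups. Skp2, a ubiquitin ligase subunit that acts on MYC, fell by 0.69 (limma adjusted p = 0.000936), and Actl6a and Wdr5, chromatin partners of MYC, each fell by 0.61 (limma adjusted p = 0.00102 and 0.00302). Gsk3b, the kinase that marks MYC for degradation, read 10.07, 10.32 and 10.02 in Ring1b_KD against 10.84 to 10.85 in Control, a fall of 0.71 (limma adjusted p = 0.000653), or of 0.27 when its probe sets were averaged. Fbxw7, the ligase subunit that reads that mark, fell in Ring1b_KD by 0.35 (limma adjusted p = 0.0182) and rose in CBFb_KD by 0.30 (limma adjusted p = 0.0333). Ruvbl1, an ATPase and MYC partner, fell by 0.51 in Ring1b_KD (limma adjusted p = 0.00103), and Fbxl14, another ligase subunit, by 0.43 (limma adjusted p = 0.0148). Another probe set of Actl6a went against its brightest one in Ring1b_KD (0.58, limma adjusted p = 0.00238, against -0.35), so no direction is given there. The calls of Fbxw7 and Fbxl14 in Ring1b_KD were lost without Control array 3 (limma adjusted p = 0.0879 and 0.0668), that of Fbxw7 also without Control array 1 (0.0544) and that of Fbxl14 without Control array 2 (0.0615). The 11 calls in CBFb_KD were 5 without Control array 3, 6 without Control array 1, Control array 2 or CBFb_KD array 3, and 7 without CBFb_KD array 2. The 7 calls in Ring1b_KD were 2 without Control array 3, 3 without Control array 2 and 4 without Control array 1 or Ring1b_KD array 1. With any 1 of these arrays left out, 0 rose. In Ring1b_KD 0 rose and 6 fell with the values as deposited, and 0 rose and 8 fell with centred arrays.

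The genes of the corepressor that MXD proteins bring gave few calls. Of 17 SIN3 and HDAC genes measured of 19, 0 rose and 1 fell in CBFb_KD, and 2 rose and 1 fell in Ring1b_KD. The share that fell was 5.88% in each, against 6.19% and 5.54% of all genes, and 11.8% rose in Ring1b_KD against 4.54%. These rises rest on 2 genes and on the scaling. In Ring1b_KD 0 rose and 2 fell with the values as deposited, and 0 rose and 4 fell with centred arrays. Sin3a, the scaffold bound by MXD proteins, read 10.33, 10.29 and 10.31 in CBFb_KD, 10.26, 10.33 and 10.35 in Ring1b_KD, and 10.45, 10.43 and 10.51 in Control, a difference of -0.15 in both (limma adjusted p = 0.236 and 0.218). Rbbp7, a histone-binding subunit, was the call in CBFb_KD, a fall of 0.22 (limma adjusted p = 0.0496) that was lost in 9 of 17 alternatives. In Ring1b_KD Hdac1 rose by 0.35 (limma adjusted p = 0.0104) while its relative Hdac2 fell by 0.52 (limma adjusted p = 0.00452), and Ing1, a reader of histone methylation, rose by 0.41 (limma adjusted p = 0.0291), lost in 7 of 17 alternatives. With centred arrays the Hdac1 difference was 0.16 (limma adjusted p = 0.331).

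Genes listed around the network outside these 10, relatives together with genes linked to MYC, gave 1 call in each knockdown among 12 measured. They are called relatives for short. The share called is 8.33%, near the 6.62% and 4.54% of all genes that rose, so the count says nothing of the group. Both genes called, Myct1 and Mycbp, were of the linked kind. With the replicate block 2 were called in CBFb_KD. Myct1, described as a MYC target, rose in CBFb_KD by 1.48 (SE 0.31, 2.79-fold, limma adjusted p = 0.0085). It read 10.93, 11.13 and 11.04 in CBFb_KD, 9.63, 9.77 and 9.25 in Control, and 10.22, 10.56 and 8.93 in Ring1b_KD, where the arrays spread widely. Mycbp, a protein that binds MYC, rose in Ring1b_KD by 0.38 (SE 0.09, limma adjusted p = 0.0183), or by 0.27 (limma adjusted p = 0.0586) with the values as deposited and 0.19 (limma adjusted p = 0.211) with centred arrays. Its call was also lost without Control array 2 (0.38, limma adjusted p = 0.0694) or Control array 3 (0.34, limma adjusted p = 0.0884).

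PRC1.6 links MGA and MAX to the knocked-down RING1B. Of its 13 measured genes of 14 listed, Rybp being the one not measured, 0 rose and 2 fell in CBFb_KD, and 1 rose and 3 fell in Ring1b_KD, Rnf2 itself among them. In Ring1b_KD 23.1% fell, against 5.54% of all genes, and in CBFb_KD 6.19% of all genes fell. The share in Ring1b_KD counts Rnf2, the target of the shRNA, whose fall was set by the knockdown. Apart from Rnf2 it rests on Tfdp1 and Hdac2 only, too few genes to compare the complex with all genes. The 2 in CBFb_KD were 4 when only 1 probe set per gene was tested, and with centred arrays 0 rose and 7 fell in Ring1b_KD. Rnf2 fell in Ring1b_KD by 1.67 (3.17-fold, limma adjusted p = 2.11e-06), with 3 of its 5 probe sets called, and differed by -0.10 in CBFb_KD (limma adjusted p = 0.555). Ring1, its paralog, read 8.53, 8.96 and 8.71 in Ring1b_KD and 8.90, 9.03 and 8.98 in Control, a difference of -0.24 that did not pass (limma adjusted p = 0.194), and -0.10 in CBFb_KD. Tfdp1, the DNA-binding partner of E2F factors, fell by 0.34 in CBFb_KD and by 0.35 in Ring1b_KD (limma adjusted p = 0.0168 in each). The Tfdp1 call in CBFb_KD was lost without CBFb_KD array 2 or without either of Control arrays 1 and 3, and that in Ring1b_KD without Ring1b_KD arrays 1 or 2 or any 1 Control array (limma adjusted p 0.0503 to 0.08). Wdr5, a scaffold of chromatin complexes, read 10.60, 10.12 and 10.32 in CBFb_KD against 10.92, 10.92 and 11.04 in Control, a fall of 0.61, and fell by 0.74 with its second probe set (limma adjusted p = 0.00124).

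E2f6, the repressive E2F that guides PRC1.6, lay on different sides of Control: 9.04, 8.95 and 9.09 in CBFb_KD, 9.74, 9.42 and 9.67 in Ring1b_KD, and 9.24, 9.17 and 9.39 in Control. The differences of -0.24 (limma adjusted p = 0.185) and 0.34 (limma adjusted p = 0.0529) did not pass, but that in Ring1b_KD passed in 5 of 17 alternatives, among them the fit without Ring1b_KD array 2 (0.44, limma adjusted p = 0.0237). The difference between the knockdowns did, at -0.58 (limma adjusted p = 0.00213). Pcgf6, the subunit that defines PRC1.6, differed by -0.47 in CBFb_KD (limma adjusted p = 0.062), with a dimmer probe set called at -0.57 (limma adjusted p = 0.0359), and by -0.06 in Ring1b_KD (limma adjusted p = 0.842). The CBFb_KD difference passed in 6 of 17 alternatives, among them the replicate block (-0.47, limma adjusted p = 0.0187) and the fits without CBFb_KD array 1 (-0.57, limma adjusted p = 0.0335) or Ring1b_KD array 2 (-0.47, limma adjusted p = 0.046). L3mbtl2, Yaf2 and Cbx3 did not pass in either knockdown, with differences of -0.26 to 0.07.

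**Figure D5:**
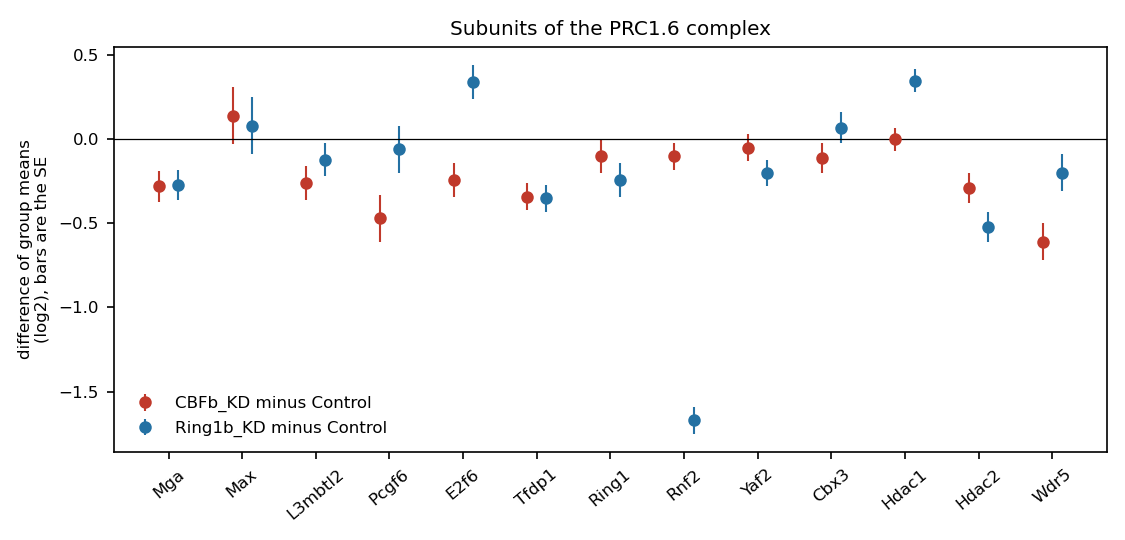
Difference from Control (y axis, log2; bars are SE) of the brightest probe set of each measured PRC1.6 gene (x axis) in CBFb_KD and Ring1b_KD. Rnf2 is far below 0 in Ring1b_KD (-1.67), and E2f6 and Hdac1 lie above 0 in Ring1b_KD while Mga and Tfdp1 lie below 0 in both.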

How the data were processed

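The authors deposited 1 value per probe set and array on a log2 scale, judged from their range of 3.227 to 15.309. How they were background corrected, summarised and normalized is not given in the sources used here. Per the labels' protocols, RNA was primed with oligo-dT and transcribed into biotinylated RNA, so probe sets read a part of each transcript. Array medians spanned 0.138, and the values were quantile normalized here over 45037 probe sets, without 64 control probe sets. The platform annotation gave 1 symbol for 34945 probe sets, several for 932, and did not list 9160. Group means over the 9 arrays were fitted by limma 3.58.1 under R 4.3.3 (lmFit, then eBayes with a trend in the variance), with two-sided p-values adjusted by Benjamini-Hochberg over all probe sets and a call at an adjusted p under 0.05. The fit was checked on simulated data. The number of arrays limits the precision.

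The genes named are all probe sets of the 10 members, Cbfb, Rnf2 and Ring1, all PRC1.6 genes, up to 4 called genes per other list and comparison by smallest adjusted p, and the 5 genes most like Mxd1 and Myc. Sin3a was named in addition, after its values were seen. Arrays of CBFb_KD and Control with the same number deviated together from their group means (r of 0.121, 0.281 and 0.137). By a rule that every pair exceed 0.1 this pairs them, although the labels give no shared batch. Values with the replicate block are given where they change the call of a named gene. The counts that the block changed are given below. Members and lists were chosen with earlier results of these data known. Alternatives were other scalings, other probe set rules, a filter on dim probe sets, a replicate block, robust variance, fits of 2 groups and leaving out each array.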

Additional observations from a re-analysis of the deposited data

Results flagged for a closer look

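A difference between the 2 knockdowns passed the test of the difference itself for 8 of the probe sets considered here, which were those of the 8 tested members and the brightest of each PRC1.6 gene; genes of the other lists also differed and were not considered. Among those of the network's genes these were the second brightest of Mga, lower in CBFb_KD than in Ring1b_KD (difference -0.39, limma adjusted p = 0.0169), the second brightest of Mxd3 (-0.75, limma adjusted p = 0.00649) and the brightest and second brightest of Mxd4 (-0.57, limma adjusted p = 0.0195, and -0.62, limma adjusted p = 0.0293). Among the PRC1.6 genes, Wdr5 (-0.41, limma adjusted p = 0.0226), Hdac1 (-0.35, limma adjusted p = 0.00609) and E2f6 (-0.58, limma adjusted p = 0.00213) were lower in CBFb_KD, and Rnf2, the gene targeted in Ring1b_KD, was higher there (1.56, limma adjusted p = 6.87e-07). No other probe set of Mga, Mxd3 or Mxd4 passed between the knockdowns. The brightest Mga probe set differed by -0.01 (limma adjusted p = 0.971) and the brightest Mxd3 probe set by -0.18 (limma adjusted p = 0.282). The third Mxd3 probe set differed by 0.10 (limma adjusted p = 0.615) and the dimmer E2f6 probe set by 0.04 (limma adjusted p = 0.81). Groups of 3 arrays are too small for a check of single arrays that stand apart.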

How the results depend on the processing

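With arrays centred on their medians, the member probe sets called were 1 (a fall) in place of 2 rises in Ring1b_KD and 1 in place of 4 between the knockdowns; with only the 2 groups fitted, they were 2 in place of 1 in CBFb_KD. Without 1 array they ran from 1 to 3 in CBFb_KD, 0 to 2 in Ring1b_KD and 1 to 4 between the knockdowns. Settings that test 1 value per gene give no count of member probe sets.

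In CBFb_KD, the relatives outside the 10 genes gave 2 calls in place of 1 with the values as deposited, centred arrays, 1 probe set per gene, means of probe sets, bright probe sets only and the replicate block. PRC1.6 gave 4 in place of 2 with 1 probe set per gene, means of probe sets and bright probe sets only. The SIN3 and HDAC genes gave 2 in place of 1 as deposited, with means of probe sets and with 2 groups, 4 with 1 probe set per gene and bright probe sets only, and 0 with centred arrays and with robust variance. In Ring1b_KD, the relatives gave 2 calls, both falls, as deposited and with centred arrays; PRC1.6 gave 7 with centred arrays; the metabolism targets gave 11 and 16, and the mitotic genes 9 and 11, as deposited and centred. In both of these scalings 0 SIN3 and HDAC genes and 0 cofactors rose in Ring1b_KD, in place of 2 of each. The causes were not tested.

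Leaving out 1 array, calls in CBFb_KD ran from 1 to 2 (relatives), 1 to 4 (PRC1.6), 0 to 2 (SIN3 and HDAC), 5 to 11 (cofactors), 12 to 27 (ribosome assembly), 10 to 19 (metabolism) and 13 to 18 (mitotic), and in Ring1b_KD, in the same order, 0 to 2, 3 to 4, 2 to 3, 2 to 7, 6 to 14, 5 to 10 and 0 to 4. Same-numbered arrays correlated at -0.145 to 0.281 in their deviations from group means (9 pairs), and others at -0.267 to 0.148 (18 pairs). By comparison, every same-numbered pair was over 0.1 for CBFb_KD and Control, and not for the pairs with Ring1b_KD. With the replicate block the mitotic genes gave 5 calls in place of 2 in Ring1b_KD, and the member probe sets gave 1, 2 and 4 calls, as without it. In CBFb_KD the block gave 28 calls in place of 24 (ribosome assembly), 3 in place of 2 (PRC1.6) and 18 in place of 17 (mitotic). In Ring1b_KD it gave 15 in place of 13 (ribosome assembly), 9 in place of 7 (metabolism) and 5 in place of 4 (PRC1.6).

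With the brightest Mxd1 probe set the sign in Ring1b_KD was not stable, from -0.12 to 0.48, and the CBFb_KD difference ran from 1.84 to 2.70. The other Mxd1 probe sets kept their sign, with 0.17 to 0.60 and 0.07 to 0.34 in Ring1b_KD and 1.50 to 2.29 and 0.69 to 1.63 in CBFb_KD. That of Myc in CBFb_KD ran from -0.79 to -0.66.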
